A study of Mus musculus with 3 samples.

Results

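The Krüppel-like factor genes Klf2, Klf3, Klf4, Klf6, Klf7, Klf9, Klf10 and Klf13 were examined across the cell types of mouse lung. The 8 genes were chosen by name, with earlier results of these data known. All 8 were present among the 21507 genes shared by the tables of cells and of nuclei. The study compared 2 ways of preparing lung of wild type C57Bl/6J mice for droplet RNA sequencing, with 1 library of whole cells and 2 of nuclei. For the cell library, fresh tissue was broken up by collagenase with DNAse before a density gradient, whereas for nuclei adult lung was snap-frozen and lysed in a nucleus isolation buffer. Preparation, fresh or frozen tissue and animal therefore cannot be told apart between cells and nuclei. No treatment or engineered allele is named for any library.

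Krüppel-like factors are zinc finger transcription factors that bind GC-rich and CACCC sequences. In endothelium, laminar blood flow raises Klf2 and Klf4 through a kinase cascade that ends in ERK5 and MEF2 factors, and both genes are known for keeping vessels quiescent and free of clots. Klf2 also keeps naive lymphocytes in circulation, Klf9 is a direct target of the glucocorticoid receptor, and Klf10 is an early target of TGF-beta.

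The libraries held 11934 cells with 35962788 counts and 6849 and 9806 nuclei with 28062109 and 27148272 counts. Median depth per barcode was 2864 counts (unique molecular identifiers, UMIs) in cells and 4152 and 2521 in nucleus replicates 1 and 2. Clusters were assigned to 5 lineages from marker genes that excluded every Klf and Sp gene. Endothelium held 2742 cells and 2568 and 1932 nuclei. The 6 endothelial markers summed to 4807 CPM (counts scaled to the same total in each sum) in endothelial cells and to 2346 and 2623 CPM in endothelial nuclei, and none was at 0. Outside endothelium they summed to between 560 and 1423 CPM in cells and between 188 and 1043 CPM in nuclei, so endothelial RNA was present in every other lineage. Its part in the levels of the Klf genes there was not tested. The libraries shared between 20 and 24 barcode strings in each pair. The labels name no separate animals, so p-values may measure technical spread in part, but the X-linked RNA Xist and the Y-linked gene Uty separated the nucleus libraries. Nucleus replicate 1 held 1022 CPM of Xist with 0.938 CPM of Uty, whereas replicate 2 held 9.62 CPM of Xist with 269 CPM of Uty, so they do not come from 1 and the same animal. The cell library held 285 and 1.03 CPM of Xist and Uty.

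The promoters of Klf2, Klf4 and Klf6 are shown because these 3 genes differed most between cells and nuclei, and because Klf2 holds the only match to the motif of the MEF2 factors named above among the members with a promoter in the table. Each run covers the bases from 250 to 51 before the start of the gene (RefSeq, GRCm38.p6), and capitals mark the match to the MEF2 motif (CTA and TAG parted by any 4 bases).

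Klf2, chr8:72318812-72319011, plus strand: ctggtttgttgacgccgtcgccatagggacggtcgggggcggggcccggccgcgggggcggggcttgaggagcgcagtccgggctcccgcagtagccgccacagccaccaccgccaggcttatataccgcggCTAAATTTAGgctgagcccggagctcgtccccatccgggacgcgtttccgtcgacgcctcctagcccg
Klf4, chr4:55532526-55532725, minus strand: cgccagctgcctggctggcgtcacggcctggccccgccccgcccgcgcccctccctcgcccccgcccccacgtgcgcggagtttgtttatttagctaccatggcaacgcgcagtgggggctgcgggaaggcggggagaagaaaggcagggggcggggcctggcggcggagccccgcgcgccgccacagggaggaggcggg
Klf6, chr13:5861239-5861438, plus strand: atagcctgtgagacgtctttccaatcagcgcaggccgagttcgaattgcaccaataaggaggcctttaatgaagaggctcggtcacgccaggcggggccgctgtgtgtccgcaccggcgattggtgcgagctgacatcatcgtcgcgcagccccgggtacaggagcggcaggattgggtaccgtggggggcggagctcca

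Promoters of 7 of the 8 members were in the RefSeq table, that of Klf10 not being among them. The Klf2 match, whose letters CTAAATTTAG read the same on both strands, begins 118 bases before the start, and 3.20% of the 32851 windows of 250 bases held such a match on either strand. Of the other motifs, CRE (TGACGTCA, in 1.55% of windows) and the CArG box (in 1.47%) had no match in the 7 windows. The AP-1 motif TGANTCA (in 6.75%) had a match in Klf9 alone. CACCC, the core of the sites that Klf proteins bind, was in 52.0% of windows and in 5 of the 7 windows of members. It had 1 match in Klf2, Klf9 and Klf13 each, 3 in Klf7, 2 and 3 on the strand of the gene and the other strand in Klf3, and none in Klf4 or Klf6. Klf2, Klf4, Klf6 and Klf10 are short genes of 2624, 5324, 8913 and 9244 bases in the GENCODE M21 annotation. Klf9, Klf3, Klf13 and Klf7 span 26909, 29514, 52565 and 92836 bases. Klf7 overlaps Gm13748 and Klf13 overlaps E030018B13Rik, each on the opposite strand and each counted in the tables, and whether counting used strand is not given in the sources used here.

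Endothelium had more RNA of 5 of the 8 genes than the mean of the other 4 lineages. These were Klf7, Klf4, Klf2, Klf3 and Klf9 in order of size, and no member was lower. The comparison was made in nuclei, where 2 libraries give a spread, with edgeR on counts summed per library and lineage, and 22.4% of 16141 genes were called at an adjusted p under 0.05, 11.3% as higher in endothelium and 11% as lower. The median log2 fold of the 8 members was 0.75, against -0.07 for all genes tested.

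**Figure D1:**
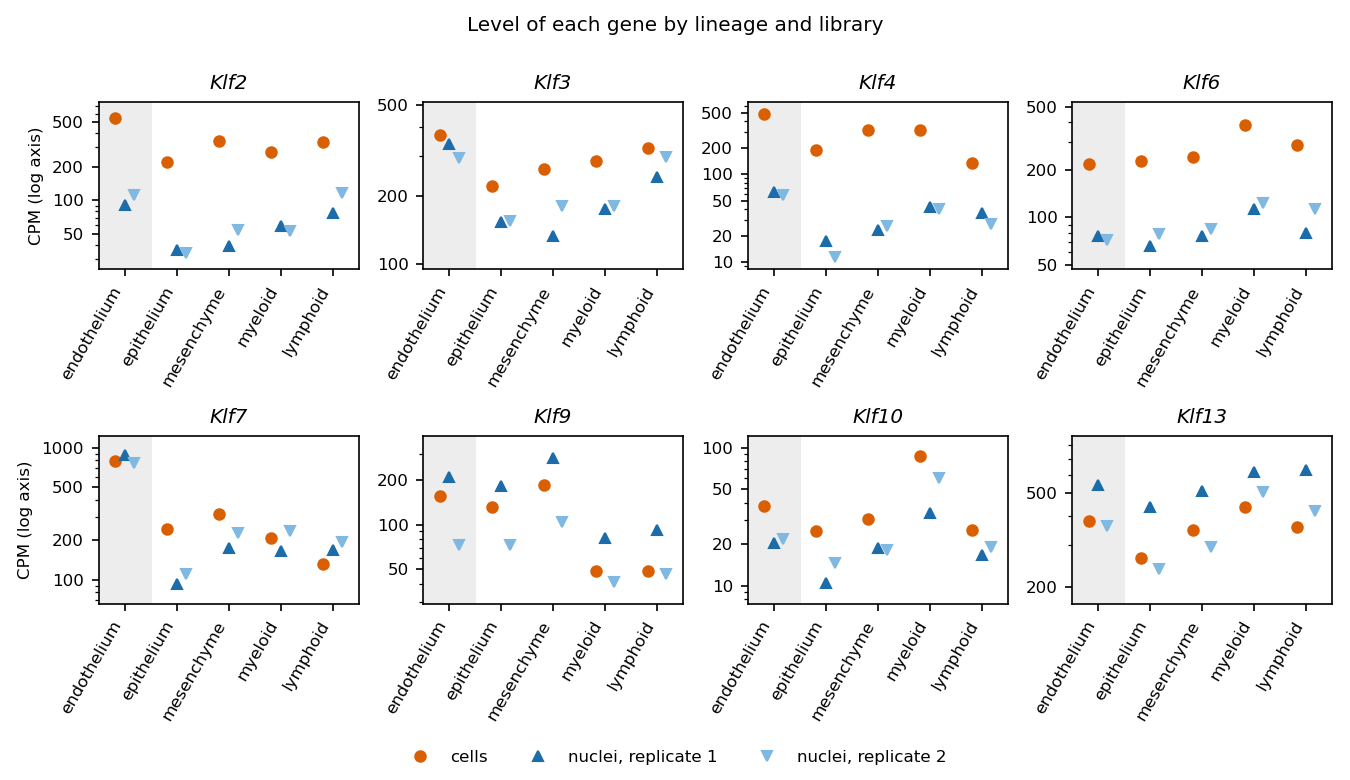
Level of each gene in 5 lineages, in CPM on a log axis whose range differs by gene, with 1 point per library and endothelium shaded. Klf7 and Klf4 stand highest in endothelium in all 3 libraries, whereas Klf6 and Klf10 stand highest in the myeloid lineage in all 3.

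Klf7, a family member best known from neurons, stood at 786 CPM in endothelial cells and at 877 and 759 CPM in endothelial nuclei of replicates 1 and 2. Its levels in the other 4 lineages ran from 131 to 315 CPM in cells, from 92.0 to 174 CPM in nucleus replicate 1 and from 109 to 231 CPM in nucleus replicate 2. Endothelium lay above every other lineage in each library, without overlap. Its log2 fold over the mean of the other lineages in nuclei was 2.49 (SE 0.14, edgeR adjusted p = 2.0e-05), the largest among the members, and it was called against each of the 4 lineages, with log2 folds between 2.11 and 3.06. After thinning to 1000 UMIs, 53.2% of endothelial cells and 50.4% and 47.7% of endothelial nuclei held a Klf7 UMI (unthinned 82.7%, 85.9% and 68.6%). Median depth in endothelium was 2653 UMIs in cells and 4004 and 2020 UMIs in nuclei, and 13 endothelial nuclei of replicate 2 were too shallow to thin. Shares in the other lineages of nuclei lay between 8.43% and 18.5%, where the endothelial gene Cdh5, which these lineages should lack, gave 4.24% to 9.42%, against 30.06% and 30.02% in endothelial nuclei.

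Klf4 stood at 476 CPM in endothelial cells and at 62.1 and 58.7 CPM in endothelial nuclei. The myeloid lineage came next, at 321, 42.4 and 40.3 CPM, and epithelium was at 186, 17.6 and 11.6 CPM. Endothelium was thus highest in every library, at a log2 fold of 1.35 over the mean of the others in nuclei (SE 0.14, edgeR adjusted p = 0.000438). It was called against all 4 lineages, from 0.73 against myeloid to 2.09 against epithelium, and the myeloid call was lost with all 3 libraries in the fit (0.64, SE 0.23, edgeR adjusted p = 0.0553) and without the term for library (0.74, SE 0.29, edgeR adjusted p = 0.127). Of barcodes thinned to 1000 UMIs, 35.2% of endothelial cells and 6.00% and 5.32% of endothelial nuclei held a Klf4 UMI (unthinned 64.5%, 19.7% and 11.1%). In the other lineages of nuclei that share was at most 4.71%, in myeloid nuclei of replicate 1, where 5.94% held a Cdh5 UMI. The part of free RNA in these low shares was not tested.

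Klf2 stood at 549 CPM in endothelial cells and at 91.0 and 111.5 CPM in endothelial nuclei. Lymphoid barcodes came close, at 332 CPM in cells and 77.4 and 116.8 CPM in nuclei, so that in nucleus replicate 2 they lay above endothelium. Over the mean of the other lineages the log2 fold in nuclei was 1.04 (SE 0.15, edgeR adjusted p = 0.00227). Klf2 was called against epithelium (1.55), mesenchyme (1.18) and myeloid nuclei (1.03), but not against lymphoid nuclei, where the log2 fold was 0.39 (SE 0.21, edgeR adjusted p = 0.268). The endothelial markers summed to 766 and 1043 CPM in lymphoid nuclei, more than in any other lineage outside endothelium. After thinning, 8.68% and 10.5% of endothelial nuclei and 40.4% of endothelial cells held a Klf2 UMI (unthinned 29.6%, 20.6% and 73.1%). Of lymphoid nuclei, with median depths of 2659 and 1294.5 UMIs, 6.82% and 12.0% did (unthinned 19.4% and 15.9%). In the same lymphoid nuclei 7.23% and 9.42% held a Cdh5 UMI, and the part of free endothelial RNA in their Klf2 share was not tested. At this step 98 lymphoid nuclei of replicate 2 were too shallow to thin.

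Klf3, a repressor that works through CtBP proteins, stood at 372 CPM in endothelial cells and at 337 and 294 CPM in endothelial nuclei. Lymphoid levels were 326, 242 and 295 CPM, again just above endothelium in nucleus replicate 2. The log2 fold over the mean of the other lineages in nuclei was 0.94 (SE 0.14, edgeR adjusted p = 0.00269), and the difference from lymphoid nuclei did not pass (0.57, SE 0.19, edgeR adjusted p = 0.0849). Klf3 was called against each of the other 3 lineages in nuclei, at log2 folds between 1.03 and 1.08. Some classes within these lineages reached endothelial levels. In cells, neutrophils (583 CPM) and monocytes (515 CPM) lay above venous cells (403 CPM), the highest endothelial class. Monocytes held 281 CPM in nucleus replicate 2. They were 1347 of 4629 myeloid cells but 32 of 488 and 190 of 978 myeloid nuclei. Mesothelial barcodes of the mesenchyme held 391, 357 and 370 CPM.

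The remaining members did not peak in endothelium in nuclei. Klf9 was higher there than in the mean of the others by a log2 fold of 0.57 (SE 0.14, edgeR adjusted p = 0.0228), yet mesenchyme had more Klf9 in each library (186, 283 and 104 CPM, against 156, 210 and 73.2 CPM in endothelium). Without the term for library its call was lost, at a log2 fold of 0.66 (SE 0.57, edgeR adjusted p = 0.551), and the value was 0.38 without nucleus replicate 1 and 0.78 without replicate 2. Klf10 was highest in the myeloid lineage, at 87.2 CPM in cells and 33.5 and 60.5 CPM in nuclei, against 37.7, 20.4 and 22.0 CPM in endothelium. It was lower in endothelium than in myeloid nuclei, by a log2 fold of -0.92 (SE 0.24, edgeR adjusted p = 0.0250), and higher than in epithelium (0.80, SE 0.23, edgeR adjusted p = 0.0346). The myeloid difference was -1.27 without nucleus replicate 1 and -0.46 without replicate 2, and the epithelial call was lost without the term for library (edgeR adjusted p = 0.0770). Klf6, a broadly expressed early response gene, stood at 217, 76.7 and 71.9 CPM in endothelium and at 384, 112 and 122 CPM in myeloid barcodes, and none of its 5 contrasts passed. Klf13, known from T cells as an activator of Ccl5, stood at 379, 541 and 361 CPM in endothelium and at 437, 615 and 505 CPM in myeloid barcodes, and none of its contrasts passed either.

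**Figure D2:**
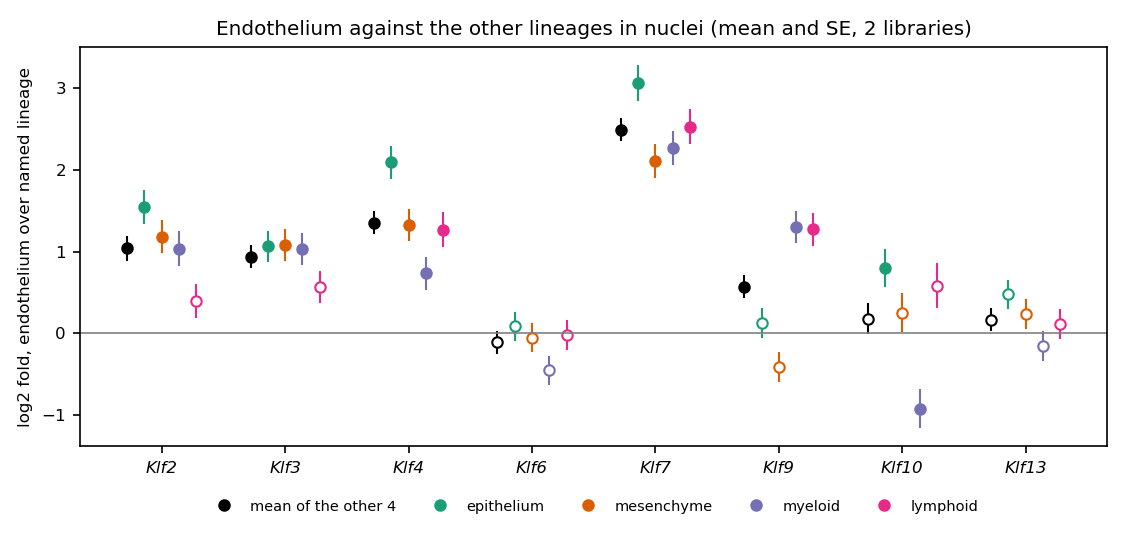
Log2 fold of endothelium over the mean of the other 4 lineages (black) and over each of them (colours) in nuclei, with SE bars from the edgeR fit over 2 libraries. Filled points have an adjusted p under 0.05 and open points do not. Klf7 is filled for every lineage at 2.11 or more, while Klf2 and Klf3 are open against lymphoid nuclei.

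Counted lineage by lineage in nuclei, 5 members were higher in endothelium than in epithelium, where 12.6% of all genes were called higher. Against mesenchyme 4 members were higher (8.16% of all genes), against myeloid nuclei 5 were higher and 1 lower (10.8% and 13.8%), and against lymphoid nuclei 3 were higher (10.1%).

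Within endothelium the members did not all peak in the same vessels. Klf7 was highest in aerocytes, the large capillary cells that line the gas exchange surface, at 1047 CPM in cells and 1834 and 1295 CPM in nuclei. General capillary cells, the other capillary type, held 677, 746 and 671 CPM, and venous cells held 626, 662 and 678 CPM. Aerocytes thus lay above every other class in each library. Lymphatic endothelium held 339 CPM of Klf7 in cells, below pericytes at 455 CPM, and 488 CPM in nucleus replicate 2. Replicate 1 had only 39 lymphatic nuclei, and no level is given for them. Klf4 stood at 599.6, 107 and 82.5 CPM in aerocytes and at 476, 80.0 and 85.0 CPM in venous cells, against 388, 52.6 and 51.8 CPM in general capillary cells. Arterial nuclei, a class not named in cells, had the least Klf4 of the 4 blood endothelial classes, at 48.2 and 28.6 CPM. Klf2 was highest in venous cells (608, 113 and 146 CPM) and aerocytes (608, 113 and 115 CPM), and these classes did not differ beyond the spread between replicates. Klf3, in contrast, was lowest in aerocytes among the blood endothelial classes. Arterial nuclei held 425 and 338 CPM and venous nuclei 392 and 366 CPM, whereas aerocyte nuclei held 255 and 197 CPM. These class levels rest on 1 sum per library and carry no test.

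**Figure D3:**
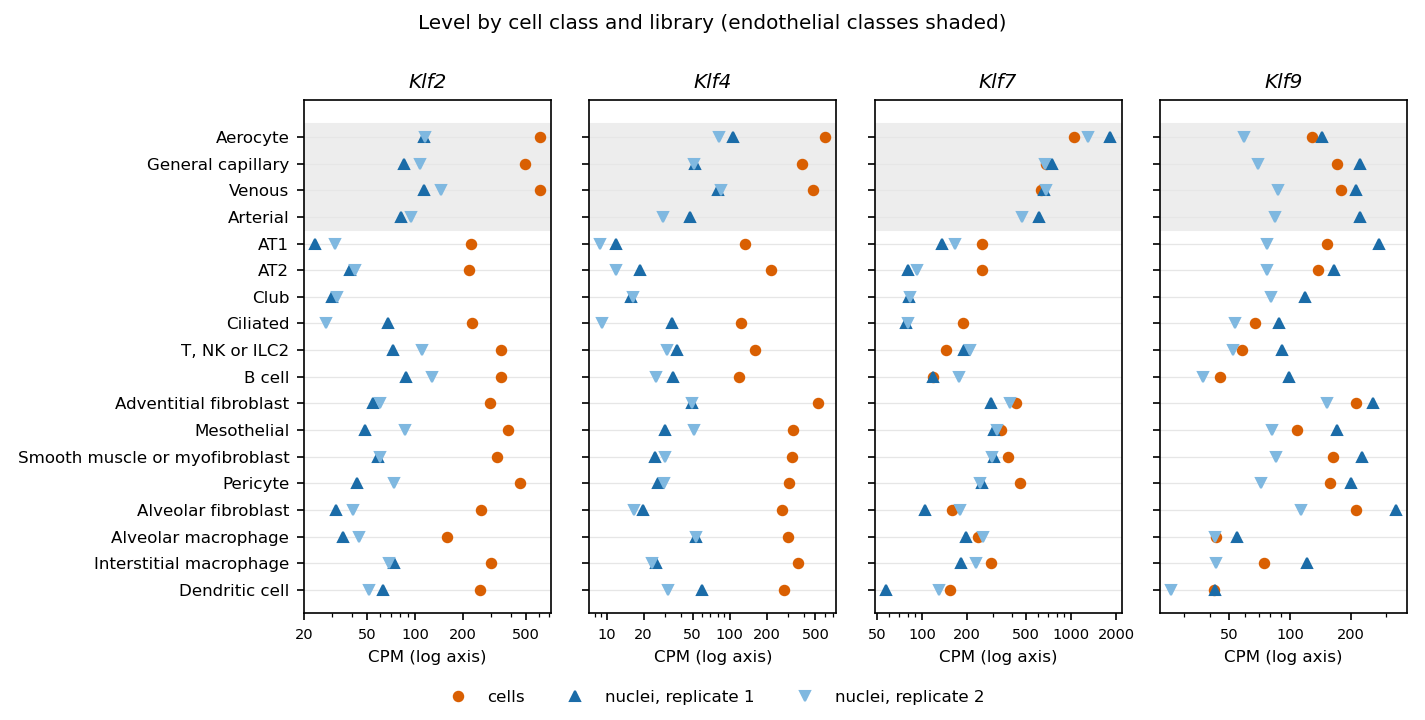
Level of Klf2, Klf4, Klf7 and Klf9 by cell class, in CPM on log axes whose range differs by gene, with 1 point per library. The 4 blood endothelial classes are shaded, and 18 classes with at least 50 barcodes in both nucleus libraries are shown. Lymphatic endothelium is not among them, and arterial and club cells were not named in cells. Aerocytes hold the highest Klf7 level in every library.

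Outside endothelium, Klf2 stood at 87.0 and 127 CPM in B cell nuclei and at 72.9 and 111 CPM in nuclei of T, NK and ILC2 cells, 2 classes in which the gene governs lymphocyte traffic. Neutrophils, named in the cell library only, held 589 CPM of Klf2 and 583 CPM of Klf3. Among the 18 classes named in both nucleus libraries, Klf6 was highest in AT1 cells, the flat epithelium of the alveolus, at 121 and 145 CPM, and in alveolar macrophages at 125 and 131 CPM. Monocytes, named among nuclei in replicate 2 only, held 142 CPM there. In cells the highest class for Klf6 was the interstitial macrophage at 502 CPM. Alveolar macrophages had the most Klf10 in every library, at 98.9, 59.9 and 83.2 CPM. In cells and in the mean of the nucleus libraries, Klf9 was highest in alveolar fibroblasts (213, 335 and 113 CPM) and adventitial fibroblasts (212, 258 and 153 CPM). In replicate 1, AT1 nuclei (276 CPM) lay above adventitial fibroblasts. In replicate 2, lymphatic nuclei (113 CPM) lay level with alveolar fibroblasts. Klf9 was low in dendritic cells (42.0, 42.8 and 25.8 CPM). Klf13 ranged over classes from 165 to 647 CPM in the mean of the nucleus libraries, from ciliated cells to alveolar macrophages.

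The genes most like each member across classes were found from the lower of Pearson's r over 16 classes in cells and in nuclei, among 10341 genes. The classes share libraries and free RNA, so r is given as a description. For Klf7 they were Bmpr2 (0.89), a BMP receptor mutated in pulmonary arterial hypertension, Arhgef12 (0.87) and the stretch-gated channel gene Piezo2 (0.87). Klf4 was closest to Klf7 itself (0.76), Mlkl (0.75) and Abcg2 (0.74), and Klf2 was closest to the endothelial adhesion gene Pecam1 (0.87), Prkd2 (0.86) and Igtp (0.85). For Klf3 they were Hs3st1 (0.82), Igtp (0.77) and Trim24 (0.76). Klf9 followed Sgce (0.92), Grb10 (0.91) and Wipi1 (0.89), and Klf10 followed the macrophage receptor gene Sirpa (0.74), Naip2 (0.71) and Dst (0.70). The likeness was weaker for Klf6, with Elf4 (0.66), Rab32 (0.64) and Cybb (0.64), and for Klf13, with Cast (0.71), Pdcd6ip (0.71) and Shld1 (0.66).

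Of 14 genes of the flow and CCM signalling that controls Klf2 and Klf4, 5 were higher and 1 was lower in endothelial nuclei than in the mean of the other lineages, where 11.3% of all genes were higher and 11% lower. Heg1, the membrane receptor of the CCM complex, stood at 1860 and 1277 CPM in endothelial nuclei with a log2 fold of 2.55. Hdac7 (1.82), Mef2c (1.19), Map3k3 (0.69) and Mef2a (0.62) were also higher, and Ccm2 was lower (-0.60). The median of the 14 was 0.23. Of the genes that Klf2 or Klf4 are known to raise, 3 of 6 tested were higher in endothelium. Nos3, the endothelial nitric oxide synthase (3.22), S1pr1, a receptor that steadies the vessel wall (1.78), and the anticoagulant receptor gene Thbd (1.39) were the ones called, and the list's median was 1.15. Among genes that Klf2 or Klf4 hold down, 1 of 4 tested was higher, the vasoconstrictor gene Edn1 (2.60). In the rest of the Klf and Sp family Klf12 (2.26) and Klf11 (1.05) were higher in endothelium and Klf5 (-0.58), Sp2 (-0.51) and Sp6 (-1.53) were lower, of 12 tested, with a median of 0.01. Of 9 corepressors and partners tested, only Kat2b was called (0.89), and the list's median was 0.09. Of 6 TGF-beta targets and receptors 3 were higher and 2 lower, at a median of 0.48, and of 6 glucocorticoid genes edgeR called 0, with 1 at an unadjusted p under 0.05 and 1 called by DESeq2, at a median of -0.02.

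Cells had far more RNA of the short Klf genes than nuclei. Over whole libraries Klf2, Klf4, Klf6 and Klf10 were higher in cells, 4 of the 8 members and none lower, where edgeR called 24.9% of 19806 genes with 16.4% higher and 8.42% lower in cells. Klf4 stood at 316 CPM in cells and at 37.8 and 24.8 CPM in nuclei, with a log2 fold of 3.49 (SE 0.41, edgeR adjusted p = 0.00464). Klf2 stood at 350 CPM and at 60.4 and 55.0 CPM, with a log2 fold of 2.76 (SE 0.34, edgeR adjusted p = 0.00492). For Klf6 the levels were 299 CPM and 75.6 and 83.9 CPM (2.08, SE 0.32, edgeR adjusted p = 0.00842), and for Klf10 they were 54.3 CPM and 17.6 and 20.8 CPM (1.67, SE 0.30, edgeR adjusted p = 0.0124). The cell library lay above both nucleus libraries for each of these genes, and also for Klf3 (304 CPM and 223 and 189 CPM). The share of all genes for which it did so is not given here. Klf3, Klf7, Klf9 and Klf13 did not pass, with log2 folds of 0.72, 0.20, -0.36 and 0.10. The signs of the last 3 depended on which nucleus library was in the comparison. Without replicate 1 the log2 folds were 0.70 for Klf7, 0.63 for Klf9 and 0.62 for Klf13, and without replicate 2 they were -0.20, -0.97 and -0.31. With 1 residual degree of freedom, this fit took the lone cell library to vary like the nuclei. Whole libraries also differed in makeup. Myeloid barcodes, the lineage with the most Klf10, were 38.8% of cells and 7.22% and 9.97% of nuclei. Endothelium, the lineage with the most Klf7, was 23.0% of cells and 38.0% and 19.7% of nuclei. Within lineages the Klf10 log2 folds ran from 0.69 in mesenchyme to 1.37 in myeloid barcodes. The part of makeup in the whole-library folds was not tested.

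The 4 members that were called were the 4 that span under 10 kb, and the 4 that were not called all span over 25 kb, limits chosen after the values were seen. Of all genes under 10 kb 28.8% were called higher in cells and 2.94% lower. Of those of 25 kb or more 7.96% were called higher and 13.03% lower. The immediate early genes Fos, Fosb, Jun, Junb, Egr1, Atf3, Ier2 and Dusp1, which tissue dissociation is known to raise, also moved with the preparation. Summed over the list, they stood at 5621 CPM in the cell library and at 127 and 107 CPM in the nucleus libraries, and within lineages at 3845 to 8107 CPM in cells and 82.5 to 158 CPM in nuclei. In lymphoid nuclei of replicate 1 the count of 1 of these genes was 0. The part of gene length or of the early genes in the Klf differences was not tested.

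Within endothelium Klf4, Klf2 and Klf6 were higher in cells, where 20.8% of all genes were called and 14.4% as higher. The log2 folds were 2.997 for Klf4 (SE 0.37, edgeR adjusted p = 0.00155), 2.48 for Klf2 (SE 0.37, edgeR adjusted p = 0.00265) and 1.56 for Klf6 (SE 0.35, edgeR adjusted p = 0.0133). Klf10 did not pass there (0.86, SE 0.33, edgeR adjusted p = 0.0937), and Klf7 stood at -0.04 (SE 0.46). Endothelium differed in makeup between the preparations, as aerocytes were 884 of 2742 endothelial cells but 321 of 2568 and 326 of 1932 endothelial nuclei. Within the general capillary class alone Klf4 stood at 388 CPM in cells and at 52.6 and 51.8 CPM in nuclei. RNA of other lineages differed as well, in both directions. The AT2 gene Sftpc had a UMI in 53.4% of thinned endothelial cells and in 91.1% and 95.4% of thinned endothelial nuclei. The 4 immune markers summed to 508 CPM in endothelial cells and to 70.1 and 161 CPM in endothelial nuclei. The part of such RNA in the Klf differences was not tested. Of the 6 tested genes that Klf2 or Klf4 raise, 4 were higher in endothelial cells, at a median log2 fold of 2.20 against 0.00 for all genes. Thbd stood at 894 CPM in endothelial cells and 143 and 99.0 CPM in nuclei (2.88), and S1pr1 at 356, 124 and 75.3 CPM (1.83). Ccr7, a lymphocyte homing receptor gene, was also higher (3.59), and Nos3 stood at 12.3, 21.3 and 20.3 CPM without passing. The part of immune RNA in the Ccr7 difference was not tested. None of the 14 upstream genes was called in either direction by edgeR, 0 had an unadjusted p under 0.05, and DESeq2 called 0 as well.

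**Figure D4:**
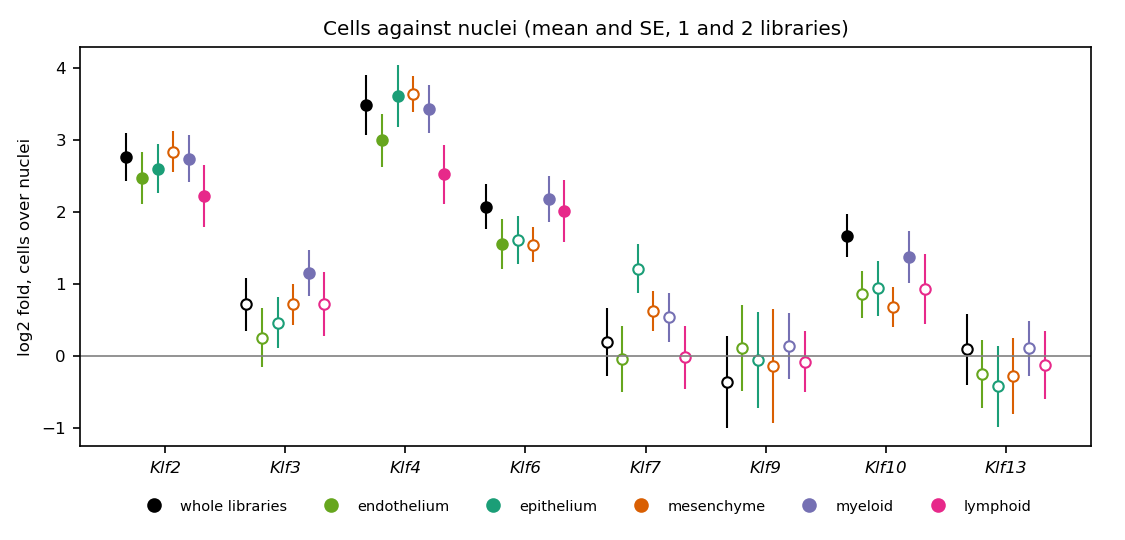
Log2 fold of cells over nuclei for each gene, over whole libraries (black) and within each lineage (colours), with SE bars from the edgeR fit of 1 cell and 2 nucleus libraries. Filled points have an adjusted p under 0.05. Klf2 and Klf4 lie above 2.2 in every lineage, and Klf9 and Klf13 lie around 0.

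The same members led by log2 fold in other lineages. Each of these fits had 1 residual degree of freedom and leaned on a spread pooled over genes. Calls therefore cannot be compared between lineages. The SE of Klf4 was 0.41 in lymphoid barcodes, where it was called, and 0.25 in mesenchyme, where it was not. In myeloid barcodes 5 members were higher in cells (28.9% of genes called, 19.9% higher): Klf4 (3.43), Klf2 (2.74), Klf6 (2.19), Klf10 (1.37) and Klf3 (1.16). Without the filter on low counts Klf10 and Klf3 lost their calls (edgeR adjusted p = 0.0867 and 0.0677). In lymphoid barcodes Klf4 (2.53), Klf2 (2.22) and Klf6 (2.02) were higher (24.4% called, 15.3% higher), and without that filter edgeR called 0 genes there (adjusted p = 0.0730 for Klf4 and 0.0832 for Klf2). In epithelium Klf4 (3.61) and Klf2 (2.60) were higher (8.27% called, 7.61% higher), and edgeR's TMM scaling and DESeq2's size factors differed there by 0.14 in the median log2 fold, with 92.0% and 66.1% of the called genes higher in cells. In mesenchyme edgeR called 0 of 16220 genes, although 5389 had an unadjusted p under 0.05 and DESeq2 called 2230. The log2 folds in mesenchyme were 3.64 for Klf4 and 2.84 for Klf2 (edgeR adjusted p = 0.0801 for each). By class, Klf2, Klf3, Klf4, Klf6 and Klf10 were higher in value in cells than in both nucleus libraries in 16 of 16 classes. Klf7 was so in 9 of them, Klf13 in 2 and Klf9 in 0. The classes come from the same 3 libraries, and the share of all genes that do so is not given here. These counts therefore carry no test. The ratio of cells to the mean of the nuclei ran from 4.005 in B cells to 14.8 in interstitial macrophages for Klf4, and from 3.22 in B cells to 8.15 in AT1 cells for Klf2. For Klf7 that ratio ran from 0.669 in aerocytes to 2.90 in AT2 cells. Endothelial RNA outside endothelium also differed with the preparation. The 6 endothelial markers summed to 1348 CPM in epithelial cells and to 191 and 219 CPM in epithelial nuclei. In mesenchyme they summed to 1423, 188 and 322 CPM. Myeloid sums were 560, 285 and 381 CPM, and lymphoid sums were 825, 766 and 1043 CPM. The part of this RNA in the Klf differences was not tested. The size of the difference between cells and nuclei in endothelium was itself set against that in the other lineages. Of 18124 genes 30 were called (0.166%), 50% of them larger in endothelium, and DESeq2 called 139, of which 36.0% were larger. No member was among them by either tool, and 0 members had an unadjusted p under 0.05 in edgeR. The fitted differences lay between -0.53 for Klf7 (SE 0.27) and 0.34 for Klf9 (SE 0.25).

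Klf9 differed more between the nucleus libraries than between cells and nuclei. It stood at 202 CPM in nucleus replicate 1 and 75.0 CPM in nucleus replicate 2, with the cells between them at 98.3 CPM. Replicate 1 lay above replicate 2 in 18 of 18 classes, by a ratio of 1.30 to 3.599, and cells lay above both or below both in 0 of 16 classes. A ratio as large as the 2.70 of the whole libraries was found for 0.845% of the 6985 genes with at least 20 CPM in both. Klf13 stood at 511 and 299 CPM and was higher in replicate 1 in 17 of 18 classes, at a whole ratio of 1.71 that 4.22% of genes reached. The classes repeat the difference between the same nucleus libraries, and the share of all genes with such class counts is not given here.

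Among the other genes of the glucocorticoid list, some moved with Klf9 and others did not. Zbtb16 stood at 1895 CPM in nucleus replicate 1, 114 CPM in nucleus replicate 2 and 81.7 CPM in cells. Fkbp5, which holds the receptor in check, stood at 291, 42.2 and 47.0 CPM, and Per1, a clock gene, at 85.6, 13.6 and 43.3 CPM. Tsc22d3, the anti-inflammatory gene GILZ, was at 143 and 40.8 CPM in nuclei and 152 CPM in cells. These 4 genes lay higher in replicate 1 than in replicate 2 in 18 of 18 classes each. The classes come from the same libraries, and the share of all genes that do so is not given here. Of the 6985 genes, 0.344% had a whole-library ratio at least as large as that of Tsc22d3. For Fkbp5 that share was 0.0716% and for Zbtb16 0.0143%, and Per1, under 20 CPM in replicate 2, has none. For Nr3c1 it was 21.9% and for Sgk1 86.2%. The receptor gene Nr3c1 was at 301 and 257 CPM, and Sgk1 was lower in value in replicate 1 than in replicate 2, at 23.9 and 33.1 CPM, against 268 CPM in cells. Each replicate is 1 library, so the difference carries no test, and replicates 1 and 2 also differed in Xist and Uty. The parts of sex and of glucocorticoid signalling in this difference were not tested.

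**Figure D5:**
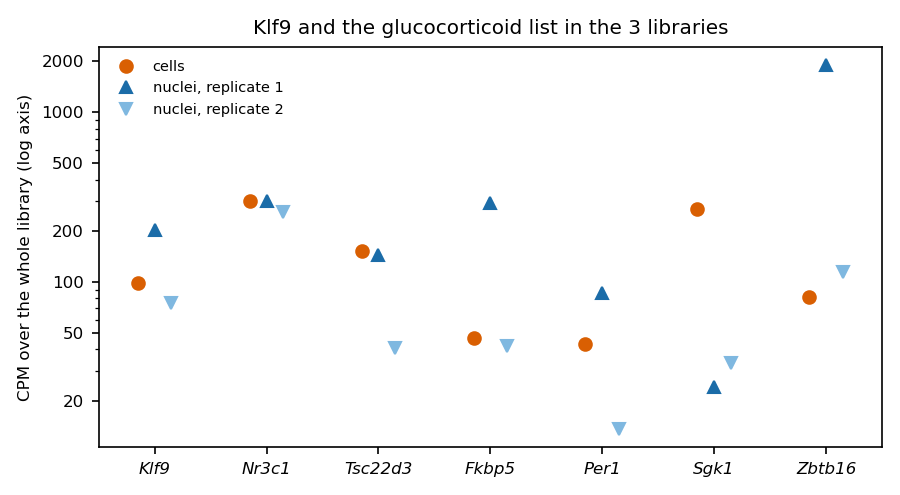
Level of Klf9 and of the 6 genes of the glucocorticoid list over whole libraries, in CPM on a log axis, with 1 point per library. Klf9, Tsc22d3, Fkbp5, Per1 and Zbtb16 lie higher in nucleus replicate 1 than in replicate 2, and Sgk1 lies highest in cells.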

How the data were processed

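Droplet 3′ RNA counts of 1 cell and 2 nucleus libraries were used. Per the labels and the deposited tables, values are whole counts per gene and barcode, taken here as UMI counts. Reads had been aligned to mm10 with STAR 2.5.3a, per the submitters' processing notes, while the counting program, its annotation and how it treated intronic reads were not given in the sources. The cell table names no sample in its columns and was taken as the 1 cell library. The members and gene lists were chosen with earlier results of these data known.

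A barcode was kept if it had 400 or more genes and less than 20% mitochondrial counts. Scrublet (scanpy 1.11.5) marked 10, 81 and 9 doublets in cells and nucleus replicates 1 and 2. Only the 81 were removed, because a caller that marks less than 0.5% of a library was taken not to have worked, so doublets may remain. Each table was clustered by the Leiden method (2000 variable genes without Klf and Sp genes, 30 components, 20 neighbours, resolution 1) and named where at least 3 markers were 2-fold higher and present in 10% of barcodes. Clusters with an unrelated lineage's markers at 0.4 or more of their own score were called mixed, a limit chosen after seeing the data. These held 237 cells, and 75 cells and 13 nuclei stayed unnamed.

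Counts were summed per library and lineage or class and tested with edgeR 4.0.16 (quasi-likelihood, TMM, filterByExpr, Benjamini-Hochberg over all genes). The SE is the log2 fold over the root of the F statistic. Levels in the text are plain CPM of the sums. Lineage contrasts had library as a term and 4 residual degrees of freedom, and cells against nuclei had 1. In simulated data edgeR recovered 100% of 2-fold changes between endothelium and the other lineages, 56% between cells and nuclei over whole libraries, 48% within endothelium and 54% for the difference between lineages. Each run had 3 to 7 false calls. The simulation gave all genes the same dispersion, held no library or lineage differences, and changed only genes above a floor of expected counts. These shares may therefore not hold in the real libraries. Alternatives were DESeq2 1.42.0, no filter, Leiden resolution 2, all 3 libraries, no library term, leaving out each nucleus library and thinning to 500 UMIs. Named were the members in full, of each list the genes its counts turn on or those highest in endothelium, and the 3 genes most like each member, from log2(CPM + 1) over genes with at least 20 CPM in a class in both preparations. Some genes that met these rules may not be reported here. Gene spans are from GENCODE M21 and promoters from RefSeq GRCm38.p6.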

Additional observations from a re-analysis of the deposited data

How the results depend on the processing

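The 5 members called in endothelium against the other lineages were also 5 under DESeq2, without the filter, at Leiden resolution 2 and with all 3 libraries, and 4 without the library block, where the genes called fell from 3609 to 2293. Over whole libraries 4 members were called in cells under each alternative run. Counts of genes called moved with DESeq2 to 2152 in endothelium, 2230 in mesenchyme, 1186 in lymphoid barcodes and 139 for the difference between lineages. Without the filter they were 2466 in epithelium, 2126 in myeloid and 0 in lymphoid barcodes, with 3 members called in myeloid and 0 in lymphoid barcodes. In mesenchyme DESeq2 called 3 members and Leiden resolution 2 gave 2042 genes and 3 members, against 0 and 0. The cause was not tested. Signs turned for values short of any call. Leaving out 1 nucleus library turned Klf9 in cells against nuclei over whole libraries (-0.97 to 0.63) and within each lineage (endothelium -0.53 to 1.21, epithelium -0.68 to 0.89), and likewise Klf13 (epithelium -0.91 to 0.21). It also turned uncalled values of Klf6 (endothelium against the other lineages -0.31 to 0.11), Klf7 and Klf10. Klf6 against lymphoid nuclei was 0.018 and Klf13 in the difference between lineages was -0.060 without the filter, -0.020 with DESeq2 and -0.010 at resolution 2. Klf7 in lymphoid cells against nuclei was 0.050 without the filter and 0.0058 at resolution 2. Thinned to 500 UMIs, the share of endothelial barcodes with a UMI in cells and nucleus replicates 1 and 2 was 22.0%, 4.21% and 4.71% for Klf2, 19.7%, 2.22% and 2.80% for Klf4, and 30.9%, 31.6% and 28.2% for Klf7, since fewer counts were kept. Leaving out a nucleus library left no residual degrees of freedom, so those values carry no test. No paired analysis was possible because the cell library carries no number that pairs it with a nucleus library. Intervals and floors cover counting error only, and the spread of the lone cell library is unknown.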
